A study of Mus musculus with 6 samples.

Results

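The genes described here are the mouse DEAD and DEAH box RNA helicases, in early 2-cell embryos exposed to ethylparaben (EtP) and in control embryos. A gene was taken as a member where its symbol began with Ddx or Dhx and a digit, pseudogenes left out, which gave 54 of the 55549 rows of the gene table. Of these, 53 are protein-coding, and the other, Dhx58os, is an antisense RNA that matched by its symbol and is no helicase. No value entered that rule, but the family was selected on results of these same libraries, so the counts and medians over its members are a description with no test. The EtP embryos had been moved 4 h after fertilization into medium with 40 uM EtP, a paraben preservative of cosmetics and foods, and the series states that most of them stopped at the early 2-cell stage. The control embryos were at the same stage, and each group had 3 libraries. The labels give no strain, no number of embryos in a library, no hour of collection and no word on whether replicate libraries stem from different cultures. The spread behind the p-values is therefore that of the 6 libraries and may be technical, and a difference in developmental age between the groups cannot be told apart from the exposure.

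DEAD and DEAH box proteins bind RNA and hydrolyse ATP to separate short duplexes, to pull RNA through a protein complex or to strip proteins from RNA. They are named after the amino acids of their motif II, the Walker B site that positions the magnesium ion and the water used in ATP hydrolysis. Most members serve a fixed step, and ribosome assembly in the nucleolus and splicing use more of them than any other process. In the mouse the early 2-cell embryo still relies on RNA stored in the egg while its own genome and its nucleoli come into use.

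Motif II could be read from the longest annotated coding sequence of all but 2 of the 53 protein-coding members. Its letters were DEAD in 28 members, DEAH in 8, DEVH in 5, DEVD in 3, DECD in 2, DECH in 2, DEIH in 2 and DESD in 1. In Ddx11 and Dhx32 the search found no match. It required an ATP-binding loop before the motif and the pattern of a later helicase motif after it. The usual spacing from the loop was tried first, and was dropped where that found nothing. The coding stretches given here, 30 bases each from the GENCODE M21 transcripts, show the motif in members whose levels are described in the results. The 12 bases in capitals encode motif II, DEAD in the first 5, then DECD in Ddx39b, DEAH in Dhx33, DECH in Ddx58 and DEVH in Dhx29.
Ddx18: ctggttattGATGAGGCTGACcgtatcttg
Ddx24: ctggtcataGATGAAGCTGATcgcatggtt
Ddx55: ctggtgctgGACGAGGCAGACagactgctc
Ddx27: ctcatcttgGATGAGGCTGACaggatgctg
Ddx10: ttagttcttGATGAGGCAGATagaatcttg
Ddx39b: tttattttgGACGAGTGTGACaagatgctt
Dhx33: gtcattttgGACGAGGCCCATgagcggact
Ddx58: atgatatttGATGAGTGTCATaacactagc
Dhx29: gtcattgtcGATGAGGTCCATgagagaagt
The motif began with the same residues in all of these genes, and the codons used for the same residue differed between DEAD members.

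The libraries held 11173295 to 14737152 estimated counts, and the members took 0.232% to 0.256% of them in EtP and 0.2% to 0.27% in control. Correlations of log2 CPM, the counts scaled to library size, were 0.975 to 0.98 within EtP, 0.931 to 0.973 within control and 0.87 to 0.905 between the groups. At least 1 count was found for 19321 to 19713 genes in EtP and 25971 to 26103 in control. Scaling by TMM, which balances libraries of unlike composition, gave factors of 0.738 to 0.833 in EtP and 1.20 to 1.39 in control, and directions below are relative to it unless a sentence says otherwise. The sum of 8 oocyte markers was 22808 to 25009 CPM in EtP, against 7304 to 9448 CPM in control, with none at 0. The sum of 7 cumulus cell markers was 17.2 to 19.2 CPM in EtP, against 16.2 to 37.1 CPM in control, with Amh and Ptx3 at 0. The sum of 6 sperm markers was 2.9 to 3.4 CPM in EtP, against 5.8 to 12.9 CPM in control, with Tnp1 at 0. The part of stored oocyte RNA in the helicase results was not tested. In whole embryos fewer cells of a kind and less RNA per cell cannot be told apart.

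With TMM scaling, more helicase transcripts were called higher than lower in EtP embryos, but not with libraries scaled by their totals alone. The largest increases were in Ddx18, Ddx24 and Ddx55, listed here under assembly of the large ribosomal subunit, and in the DNA helicase Ddx11. Each member was listed under a single step, which need not be its only one. Of 50 members with enough counts to test, 17 (34.0%) were higher and 2 (4.0%) lower in EtP, by edgeR's quasi-likelihood test at a Benjamini-Hochberg adjusted p of 0.05 over all genes. Over all 14373 genes tested, 12.5% were higher and 18.1% lower. The members' median log2 fold change was 0.42, and that of all genes was -0.19. Since the family was selected on this comparison, nothing is read from these shares. With libraries scaled by their totals alone, 6 members were higher and 12, Ddx20, Ddx31, Ddx39b, Ddx54, Ddx58, Dhx8, Dhx9, Dhx30, Dhx33, Dhx37, Dhx40 and Dhx57, lower, and the members' median was -0.32, where 3.8% of all genes were higher, 53.0% lower and their median was -0.92. The 6 members higher under that scaling, Ddx10, Ddx11, Ddx18, Ddx24, Ddx27 and Ddx55, were also called under each of the 17 alternatives that tested them.

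**Figure D1:**
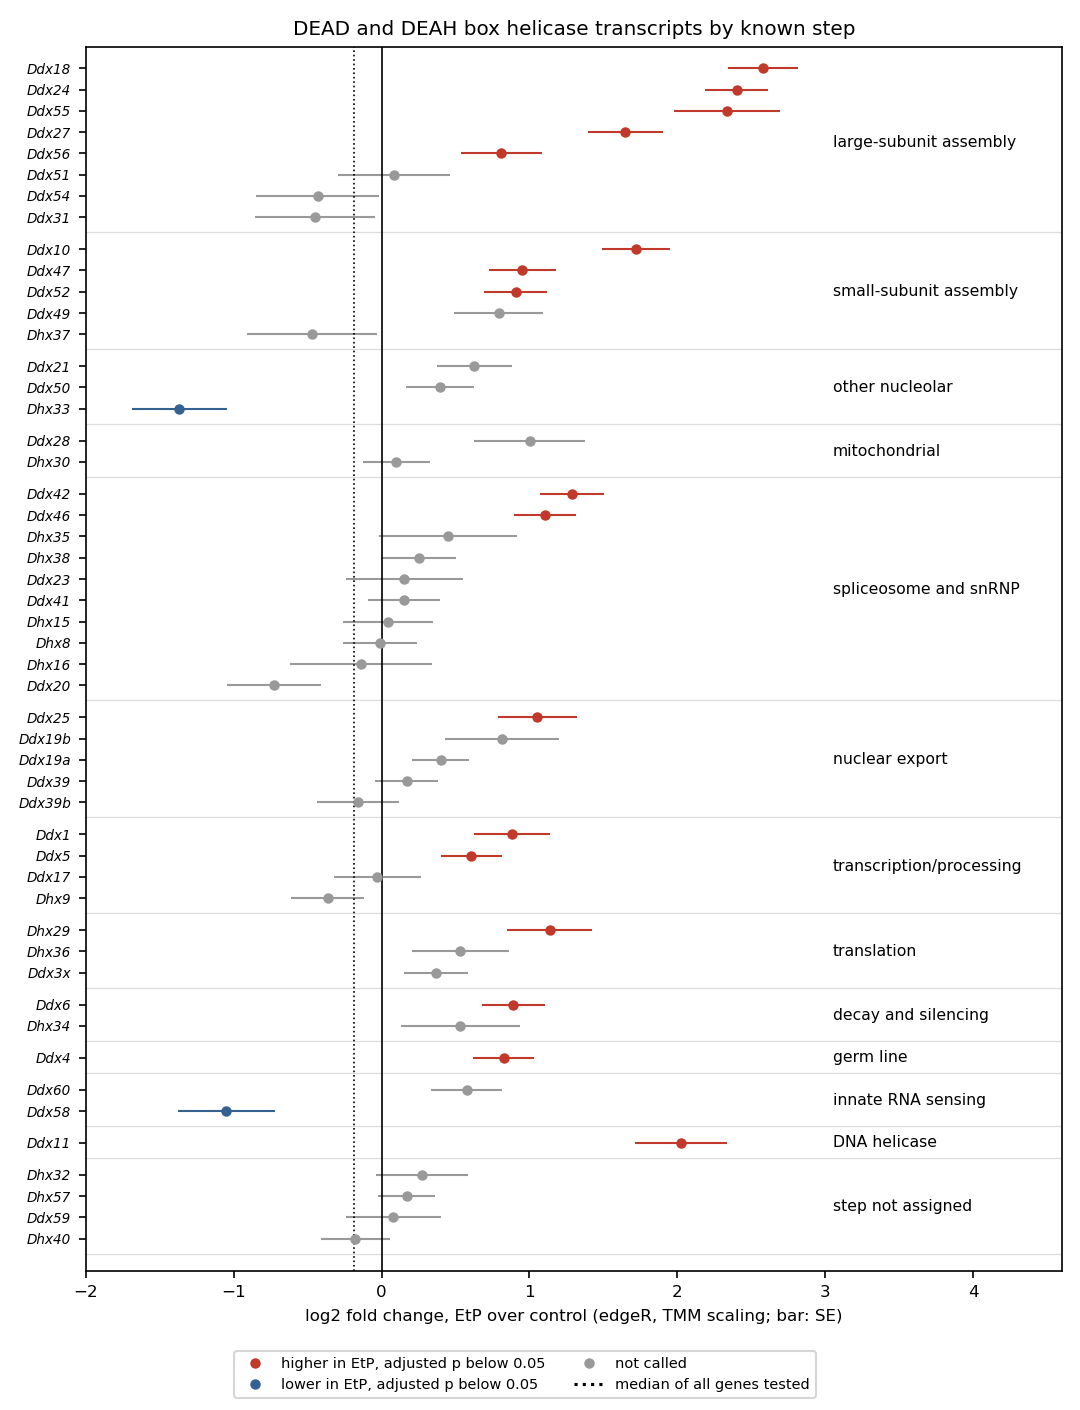
Log2 fold change of EtP over control for the 50 tested members, grouped by known step, with bars for the SE (edgeR, TMM scaling, 3 libraries per group); red points were higher and blue points lower in EtP at an adjusted p below 0.05. Ddx18 at 2.58, Ddx24 at 2.40 and Ddx55 at 2.34 of large-subunit assembly and the DNA helicase Ddx11 at 2.03 lie farthest right, and Dhx33 at -1.37 lies farthest left.

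Of the 8 members known from their yeast counterparts to act in large-subunit assembly, 5 rose in EtP and none fell. Of all genes tested, 12.5% rose and 18.1% fell. The median log2 fold change of the 8 members was 1.23. Ddx18, the counterpart of yeast Has1, had 223, 215 and 182 CPM in the EtP libraries, against 43.0, 29.6 and 31.2 CPM in the control libraries. The groups were far apart, and the log2 fold change was 2.58 ± 0.23 (SE; adjusted p = 3.62e-05 in edgeR). Ddx24, the counterpart of yeast Mak5, had 347, 359 and 279 CPM in EtP, against 67.1, 57.2 and 62.1 CPM in control. The lowest EtP library was well above the highest control library, and the log2 fold change was 2.40 ± 0.21 (SE; adjusted p = 2.96e-05 in edgeR).

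Ddx55, the counterpart of yeast Spb4, was a rare transcript with 36, 29 and 43 estimated counts in EtP, against 11, 12.5 and 11.04 in control. Scaled for depth, this was 3.41 ± 0.19 CPM in EtP and 0.67 ± 0.04 CPM in control (SD, n = 3 each), and its log2 fold change was 2.34 ± 0.36 (SE; adjusted p = 0.000946 in edgeR). Ddx27, the counterpart of yeast Drs1, had 14.2, 14.3 and 13.2 CPM in EtP, against 3.78, 5.13 and 4.35 CPM in control. All EtP libraries were above all control libraries, and the log2 fold change was 1.65 ± 0.25 (SE; adjusted p = 0.000971 in edgeR). Ddx56, a nucleolar helicase of large-subunit assembly, had 20.5, 20.3 and 30.7 CPM in EtP, against 10.02, 14.8 and 16.0 CPM in control (log2 fold change 0.81, edgeR adjusted p = 0.0458). That call was lost without any 1 of the EtP libraries (adjusted p = 0.0666 to 0.173) or without control library 2 (adjusted p = 0.0704).

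The other 3 members of this step did not pass the test with TMM, but Ddx31 and Ddx54 were lower with library size alone (-1.19 and -1.17, adjusted p = 0.0385 and 0.0425). Ddx51, the counterpart of yeast Dbp6, had a log2 fold change of 0.09 ± 0.38 (SE), Ddx31, of yeast Dbp7, one of -0.45 ± 0.41, and Ddx54, of yeast Dbp10, one of -0.43 ± 0.42 (edgeR adjusted p = 0.433 to 0.887). They were also rare, with 1.25, 1.64 and 0.657 TPM, a unit scaled for transcript length and depth, in EtP and 2.95, 2.87 and 1.24 TPM in control. Ddx54 overlaps antisense genes over 15.5% of its exon bases, and the library protocol does not mark strand.

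Ddx18 has a copy among the annotated genes, Gm16433. Of the 100-base stretches of Ddx18 transcripts, 34.6% recur in other annotated transcripts, most often in that copy. The deposited counts gave the copy 5.56, 1.33 and 11.7 in EtP and 7.03, 6.99 and 0 in control, against 2308, 1947 and 2202 counts for Ddx18 in EtP and 717, 559 and 481 in control. The counts given to the copy were thus small beside those of Ddx18 in each library. They depend on how reads that match both were shared out, so the origin of such reads cannot be told from them. Ddx18 lies on chromosome 1 from 121553835 to 121567989 of mm10 on the minus strand, Ddx24 on chromosome 12 from 103407982 to 103425830 on the minus strand, Ddx27 on chromosome 2 from 167015193 to 167034947 on the plus strand, and Ddx55 on chromosome 5 from 124552864 to 124569660 on the plus strand.

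Of the 5 members of small-subunit assembly, 3 rose and none fell, beside 12.5% and 18.1% of all genes. Their median log2 fold change was 0.91. Ddx10, the counterpart of yeast Dbp4, had 34.4, 29.7 and 35.3 CPM in EtP, against 8.82, 11.6 and 9.67 CPM in control. The groups did not overlap, and the log2 fold change was 1.72 ± 0.23 (SE; adjusted p = 0.000423 in edgeR). Ddx47, the counterpart of yeast Rrp3, averaged 21.6 ± 2.14 CPM in EtP and 11.2 ± 1.22 CPM in control (SD, n = 3 each), a log2 fold change of 0.95 (edgeR adjusted p = 0.0102). Ddx52, the counterpart of yeast Rok1, averaged 27.2 ± 1.46 CPM in EtP and 14.5 ± 0.59 CPM in control (SD, n = 3 each), a log2 fold change of 0.91 (edgeR adjusted p = 0.0091). Ddx49, of yeast Dbp8, had a log2 fold change of 0.79 ± 0.30 (SE) and did not pass (edgeR adjusted p = 0.0699), except without control library 3 (1.07, adjusted p = 0.022). Its exons overlap Homer3 on the other strand over 29.8% of their bases. Dhx37, of yeast Dhr1, had 6, 8 and 10 counts in EtP, against 12, 22 and 20 in control, and did not pass either (adjusted p = 0.449), except as lower with library size alone (-1.20, adjusted p = 0.0461).

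The 3 other nucleolar members did not move together. Dhx33, known from human cells for a role in transcription of ribosomal DNA, had 2.70, 3.87 and 4.14 CPM in EtP, against 6.54, 9.31 and 11.9 CPM in control. It fell, with no overlap between the groups and a log2 fold change of -1.37 ± 0.32 (SE; adjusted p = 0.00946 in edgeR), a call that was lost without EtP library 1 (-1.16, adjusted p = 0.0625). Ddx21, which links polymerase I transcription with processing of ribosomal RNA, had 16.0, 21.2 and 16.3 CPM in EtP, against 13.9, 9.25 and 11.6 CPM in control, and did not pass (edgeR adjusted p = 0.0852), except without control library 1 (0.88, adjusted p = 0.00936). Its paralogue Ddx50 had a log2 fold change of 0.40 ± 0.23 (SE; adjusted p = 0.221). Over small-subunit assembly, large-subunit assembly and these other nucleolar members, 16 were tested. Of these, 8 rose and 1 fell, beside 12.5% and 18.1% of all genes, and the median log2 fold change was 0.80. With library size alone Ddx10, Ddx18, Ddx24, Ddx27 and Ddx55 were higher, and Ddx31, Ddx54, Dhx33 and Dhx37 lower. Under that scaling 3.8% of all genes were higher and 53.0% lower.

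Of the members that serve mitochondria, neither passed the test. Ddx28, known from human cells to assemble the mitochondrial large ribosomal subunit, had 5.79, 7.74 and 8.86 CPM in EtP, against 2.16, 3.33 and 5.71 CPM in control (log2 fold change 1.00 ± 0.37 SE, edgeR adjusted p = 0.0646). Without control library 3 it was called, with a log2 fold change of 1.48 (adjusted p = 0.00783). Dhx30, which binds mitochondrial RNA, had 35.1, 51.7 and 38.1 CPM in EtP, against 39.1, 38.4 and 38.9 CPM in control, with overlap. On the TPM scale Dhx30 was at 19.5, 28.1 and 20.8 in EtP, against 45.8, 44.6 and 41.3 in control, so that its direction depended on the scaling and unit. With library size alone its log2 fold change was -0.63 (edgeR adjusted p = 0.0439), against 0.10 with TMM.

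Among the 10 helicases of the spliceosome and of snRNP assembly, 2 rose and none fell, beside 12.5% and 18.1% of all genes. Their median log2 fold change was 0.15. Ddx42, which associates with the SF3B complex of the U2 snRNP, had 40.4, 42.4 and 41.5 CPM in EtP, against 14.8, 18.1 and 18.0 CPM in control. Each EtP library was above all control libraries, and the log2 fold change was 1.29 ± 0.21 (SE; adjusted p = 0.00149 in edgeR). Ddx46, the counterpart of yeast Prp5, which remodels the U2 snRNP at the branch site, had 139, 175 and 132 CPM in EtP, against 65.0, 68.0 and 74.6 CPM in control. Its groups did not overlap either, and the log2 fold change was 1.11 ± 0.21 (SE; adjusted p = 0.003 in edgeR). Sf3b1, the SF3B subunit that Ddx46 contacts, was at 643 ± 36.9 CPM in EtP and 310 ± 35.4 CPM in control (SD, n = 3 each), a log2 fold change of 1.05 (edgeR adjusted p = 0.00292), a call lost with library size alone (0.32, adjusted p = 0.208) and on TPM as deposited.

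None of the DEAH box helicases that drive the later steps of splicing passed the test. Dhx15, the counterpart of yeast Prp43, which takes the spliceosome apart, had a log2 fold change of 0.04 ± 0.30 (SE), Dhx8, of yeast Prp22, one of -0.01 ± 0.25, Dhx16, of yeast Prp2, one of -0.14 ± 0.48, and Dhx38, of yeast Prp16, one of 0.25 ± 0.25. Ddx23, of yeast Prp28, had 0.15 ± 0.40, Ddx41 had 0.15 ± 0.24 and Dhx35 had 0.45 ± 0.47 (SE), and for these 7 the edgeR adjusted p ranged from 0.483 to 0.978. Dhx8 was lower with library size alone (-0.76, edgeR adjusted p = 0.0403). Ddx20, the helicase of the SMN complex that loads Sm proteins on snRNAs, had 3.48, 5.08 and 2.82 CPM in EtP, against 5.04, 6.77 and 6.88 CPM in control. Its groups overlapped slightly, and its log2 fold change of -0.72 ± 0.32 (SE) did not pass (edgeR adjusted p = 0.108). Ddx20 was lower with library size alone (-1.47, edgeR adjusted p = 0.00405) and on log2(TPM + 1) (-0.94, limma adjusted p = 0.0199).

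Of the 5 members of mRNA export, 1 rose and none fell, beside 12.5% and 18.1% of all genes. Ddx25, known in the mouse as a helicase of the testis with a role in mRNA export, had 18.3, 18.7 and 16.2 CPM in EtP, against 11.1, 8.09 and 6.43 CPM in control. All EtP libraries were above all control libraries (log2 fold change 1.05 ± 0.27 SE, edgeR adjusted p = 0.0131), but the call was lost without EtP library 1 (adjusted p = 0.0506) or control library 2 (adjusted p = 0.0529). Ddx19a, of the Dbp5 type that frees mRNA on the outer face of the nuclear pore, had 318, 316 and 290 CPM in EtP, against 253, 237 and 211 CPM in control. The groups did not overlap in CPM, but the log2 fold change of 0.40 ± 0.19 (SE) did not pass (edgeR adjusted p = 0.14), except without control library 1 (0.55, adjusted p = 0.0217). Its paralogue Ddx19b had a log2 fold change of 0.82 ± 0.38 (SE; adjusted p = 0.132) and passed without control library 3 (1.23, adjusted p = 0.024); 19.3% of the 100-base stretches of Ddx19a transcripts recur elsewhere, most often in Ddx19b. The UAP56-type helicases Ddx39 and Ddx39b, which load export factors on mRNA, had log2 fold changes of 0.17 ± 0.21 and -0.16 ± 0.28 (SE; adjusted p = 0.58 and 0.7). Ddx39b was lower with library size alone (-0.89, edgeR adjusted p = 0.0253). Ddx39 overlaps Adgre5 on the other strand over 17.4% of its exon bases.

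Of the 4 members that act in transcription and RNA processing, 2 rose and none fell, beside 12.5% and 18.1% of all genes. Ddx1, a part of the human tRNA ligase complex, had 11.5, 10.7 and 11.6 CPM in EtP, against 7.32, 5.92 and 5.06 CPM in control (log2 fold change 0.88 ± 0.26 SE, edgeR adjusted p = 0.0245). The groups did not overlap, but the call was lost without any 1 of the EtP libraries (adjusted p = 0.0565 to 0.0806) or without control library 2 (adjusted p = 0.0781). Ddx5, a coregulator that also works with Drosha on primary microRNAs, averaged 282 ± 29.4 CPM in EtP and 185 ± 26.2 CPM in control (SD, n = 3 each), a log2 fold change of 0.61 (edgeR adjusted p = 0.0465). That call too was lost without any 1 of the EtP libraries (adjusted p = 0.0632 to 0.132) or without control library 2 (adjusted p = 0.0963), and with libraries scaled by totals alone the log2 fold change of Ddx5 was -0.13. Its paralogue Ddx17 had -0.03 ± 0.30 and Dhx9, a nuclear helicase of double-stranded RNA, had -0.36 ± 0.25 (SE; adjusted p = 0.956 and 0.29). Dhx9 was lower with library size alone (-1.09, edgeR adjusted p = 0.00358) and on log2(TPM + 1) (-1.0, limma adjusted p = 0.005).

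Of the 3 tested members of translation, 1 rose and none fell, beside 12.5% and 18.1% of all genes. Dhx29, which helps the small ribosomal subunit scan structured leaders, had 55.0, 59.7 and 60.5 CPM in EtP, against 17.04, 25.3 and 37.5 CPM in control. In CPM the EtP libraries lay close together and above the spread of the controls, with a log2 fold change of 1.14 ± 0.28 (SE; adjusted p = 0.0127 in edgeR). On the TPM scale Dhx29 was at 27.9, 31.4 and 38.2 in EtP, against 11.1, 20.4 and 39.8 in control, with overlap. Ddx3x, which supports initiation on structured mRNAs, had 377, 399 and 399 CPM in EtP, against 232, 336 and 343 CPM in control, and its log2 fold change of 0.37 ± 0.22 (SE) did not pass (adjusted p = 0.222). Dhx36, which unwinds G-quadruplexes, had 0.53 ± 0.33 (SE; adjusted p = 0.243). Ddx3y, the Y-linked paralogue of Ddx3x, had no count in any EtP library, where a count of 0 allows up to 3, against 3, 13 and 6 counts in control, too few to test.

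Of the members of decay and silencing, Ddx6 rose. Ddx6, which represses and stores mRNA in cytoplasmic granules and activates decapping, had 50.5, 49.0 and 57.5 CPM in EtP, against 23.9, 30.3 and 30.4 CPM in control. The groups did not overlap, and the log2 fold change was 0.89 ± 0.22 (SE; adjusted p = 0.0108 in edgeR). Dhx34, a factor of nonsense-mediated decay, had a log2 fold change of 0.53 ± 0.40 (SE; adjusted p = 0.342).

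In the germ line group Ddx4, the mouse Vasa homologue, had 536, 434 and 549 CPM in EtP, against 248, 312 and 296 CPM in control. It rose without overlap, with a log2 fold change of 0.83 ± 0.21 (SE; adjusted p = 0.0123 in edgeR), a call lost without EtP library 1 (adjusted p = 0.0561). Ddx43, a germ cell helicase, had no count in any EtP library and 3, 22 and 17 counts in control. Ddx43 was removed by the filter on low counts, and its exons overlap an antisense gene over 15.9% of their bases.

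Among the sensors of foreign RNA, Ddx58, which encodes RIG-I, had 22.1, 13.3 and 13.8 CPM in EtP, against 49.6, 29.4 and 22.8 CPM in control. The highest EtP library lay just under the lowest control library, and the log2 fold change was -1.05 ± 0.33 (SE; adjusted p = 0.0339 in edgeR). The call was lost without control library 1, the highest (-0.58, adjusted p = 0.0847), without control library 2 (adjusted p = 0.0739), without EtP library 2 (adjusted p = 0.15) and without EtP library 3 (adjusted p = 0.136). Ddx60, a cofactor of RIG-I signalling, had 12.6, 13.1 and 13.1 CPM in EtP, against 10.1, 7.56 and 8.37 CPM in control, and did not pass (log2 fold change 0.58, adjusted p = 0.0937), except without control library 1 (0.80, adjusted p = 0.0126). Dhx58, which encodes LGP2, had 0, 2 and 0 counts in EtP, against 6, 9 and 16 in control, and was not tested. The antisense RNA Dhx58os had 1 count in all, in a control library.

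Ddx11 stands apart from the family in its substrate, since it is a DNA helicase of sister chromatid cohesion with an iron-sulphur cluster. It had 108, 116 and 83.6 CPM in EtP, against 15.2, 24.9 and 35.4 CPM in control. Even the lowest EtP library was above all controls, and the log2 fold change was 2.03 ± 0.31 (SE; adjusted p = 0.000929 in edgeR). Ddx11 lies on chromosome 17 from 66123520 to 66152174 of mm10 on the plus strand. The 4 tested members with no assigned step, Dhx32, Dhx57, Ddx59 and Dhx40, had log2 fold changes of -0.18 to 0.28, and none passed. With library size alone Dhx40 and Dhx57 were lower (-0.9 and -0.57, edgeR adjusted p = 0.0123 and 0.0433), Dhx40 also on log2(TPM + 1) (-0.84, limma adjusted p = 0.0176). Dhx32 averaged 58.1 ± 3.22 CPM in EtP and 48.0 ± 20.2 CPM in control, and Dhx57 64.8 ± 1.98 CPM in EtP and 57.6 ± 1.76 CPM in control (SD, n = 3 each).

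Levels between genes were compared in TPM, which is scaled for transcript length. In EtP the highest members were Ddx24 at 324 ± 107, Ddx19a at 290 ± 8.49, Ddx18 at 268 ± 41.2, Ddx4 at 188 ± 36.5 and Ddx3x at 176 ± 22.9 TPM (SD, n = 3). In control they were Ddx19a at 281 ± 23.0, Ddx3x at 208 ± 54.4, Ddx4 at 170 ± 44.2, Ddx5 at 112 ± 23.2 and Ddx39 at 97.6 ± 17.6 TPM. In EtP each neighbour among the first 5 overlapped the next, and a gap followed Ddx3x, before Ddx5 at 113 and Ddx11 at 112 TPM. In control Ddx19a stood above Ddx3x without overlap, the ranks from Ddx3x to Ddx39 overlapped, and Ddx24 followed after a gap at 60.9 ± 15.1 TPM, with Ddx18 at 44.4 ± 6.59 and Ddx11 at 24.1 ± 6.47 TPM. Ddx24, Ddx18 and Ddx11 were thus among the 7 members at or above 100 TPM in EtP, and not among the 4 in control.

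Ddx24 had 337, 424 and 210 TPM in EtP, against 77.7, 48.5 and 56.4 TPM in control. Ddx18 had 279, 303 and 223 TPM in EtP, against 51.7, 38.8 and 42.8 TPM in control. For both, the TPM of the groups did not overlap. Ddx19a, Ddx4, Ddx5 and Ddx3x had overlapping TPM in the 2 groups. The family summed to 1916, 1956 and 1788 TPM in EtP, against 1174, 1458 and 1565 TPM in control, of which the top 5 members held 62.9% to 67.8% in EtP and 60.5% to 64.7% in control. At least 10 TPM were reached by 20 members in EtP and 19 in control, and at least 1 TPM by 47 and 48.

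**Figure D2:**
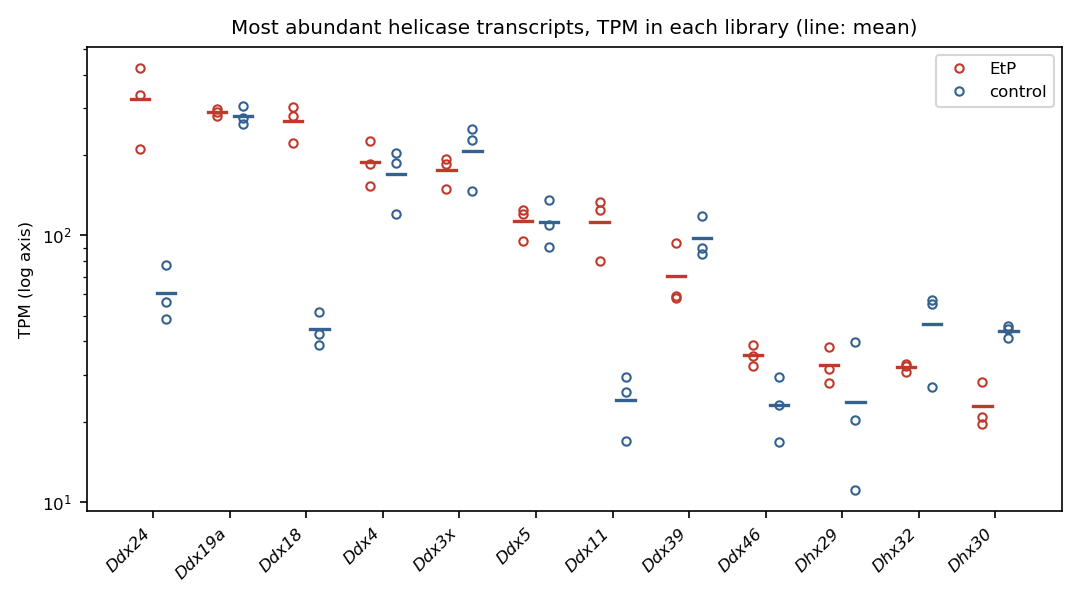
TPM on a log axis in each of the 3 EtP (red, left) and 3 control (blue, right) libraries for the most abundant helicases, ordered by their EtP mean, with lines for group means. Ddx24, Ddx18 and Ddx11 show separate groups, with EtP means of 324, 268 and 112 TPM and control means of 60.9, 44.4 and 24.1 TPM, while Ddx19a, Ddx4, Ddx3x and Ddx5 overlap.

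The direction of many members depended on scaling. On log2(TPM + 1) as deposited, limma called 6 members higher, Ddx10, Ddx11, Ddx18, Ddx24, Ddx27 and Ddx55, and 6 lower, Ddx20, Ddx58, Dhx9, Dhx30, Dhx33 and Dhx40, while 5.2% of all genes were higher and 42.8% lower. When each library's log2(TPM + 1) was centred on its median, an alternative chosen after seeing the data, 16 members were higher and 1, Dhx33, lower, with 12.4% and 16.6% of all genes. These 16 were all among the 17 of the edgeR test. Centring, like TMM, shifts whole libraries against each other, so this overlap does not show which scaling is right. With library size alone and on TPM as deposited, the calls of Ddx1, Ddx4, Ddx5, Ddx6, Ddx25, Ddx42, Ddx46, Ddx47, Ddx52, Ddx56 and Dhx29 were lost. Ddx18 had a log2 fold change of 1.85 with totals alone, 2.57 on TPM as deposited and 3.12 on centred TPM, and Dhx33 had -2.11, -1.49 and -0.94.

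**Figure D3:**
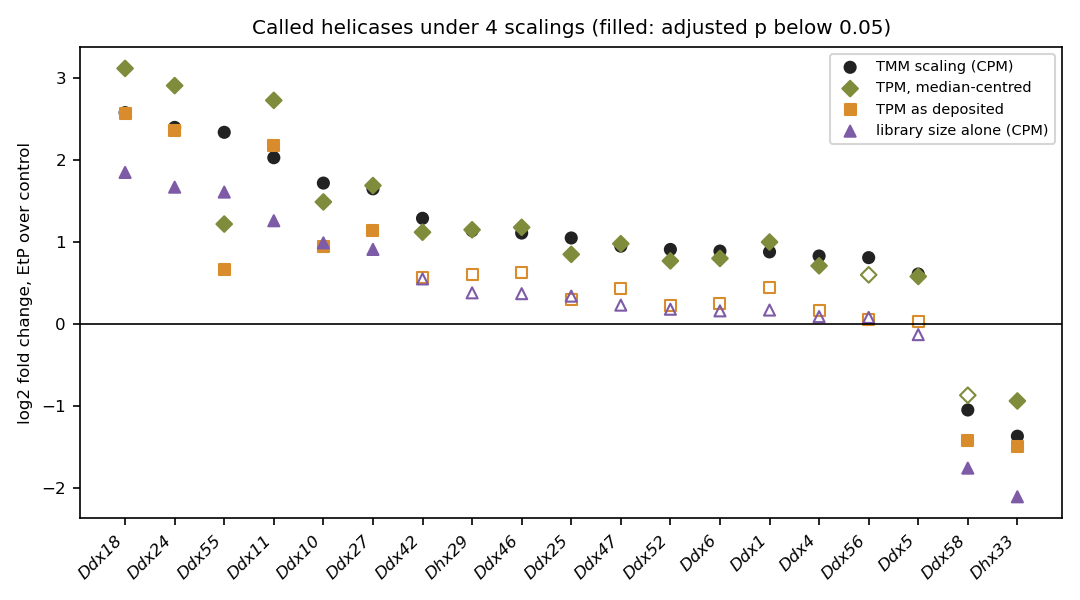
Log2 fold change of EtP over control for the 19 called members under TMM-scaled CPM (circles), median-centred log2(TPM + 1) (diamonds), log2(TPM + 1) as deposited (squares) and CPM on library size alone (triangles); filled marks had an adjusted p below 0.05. From Ddx42 to Ddx5 the marks for library size alone and TPM as deposited are open and lie between -0.13 and 0.63, while the 6 leftmost genes are filled under all 4 scalings.

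The deposited tables also give the mean transcript length of each gene in each library, weighted by isoform, which the choice of members did not use. Of the 50 tested members, 7 (14.0%) were shorter in EtP with no overlap between groups and 4 (8.0%) longer, where 8.2% and 8.77% of all tested genes were. The shorter ones were Ddx11, Ddx18, Ddx27, Ddx19a, Ddx46, Ddx47 and Ddx58, and the longer ones Ddx17, Ddx19b, Dhx36 and Ddx4. Ddx18 had 901, 826 and 1083 bases in EtP, against 1254, 1401 and 1541 bases in control. Ddx11 had 972, 986 and 1346 bases in EtP, against 1349, 1735 and 2449 bases in control, with the longest EtP value next to the shortest control value. For these the ratios of EtP to control means were 0.67 and 0.60. Ddx18 has annotated transcripts of 2258, 451, 512 and 622 bases, the last a retained intron, so its mean length moves with the share of reads given to the short ones. Ddx11 has coding transcripts of 4149, 4141 and 681 bases and retained introns of 576, 618, 662, 805 and 4480 bases. Its mean lengths in both groups were below its long coding transcripts, so part of its counts was given to short ones. Ddx24 had 1128, 963 and 1665 bases in EtP, against 1295, 2097 and 2252 bases in control, with overlap. The coding transcripts of Ddx24 have 3063, 2850, 2669, 527 and 485 bases, so part of its counts too was given to short transcripts. TPM divides by this length, so a shorter estimate raises the TPM of Ddx18 and Ddx11 in EtP, while their CPM does not use it. RNA integrity was not measured in these files, and its part in the lengths was not tested.

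**Figure D4:**
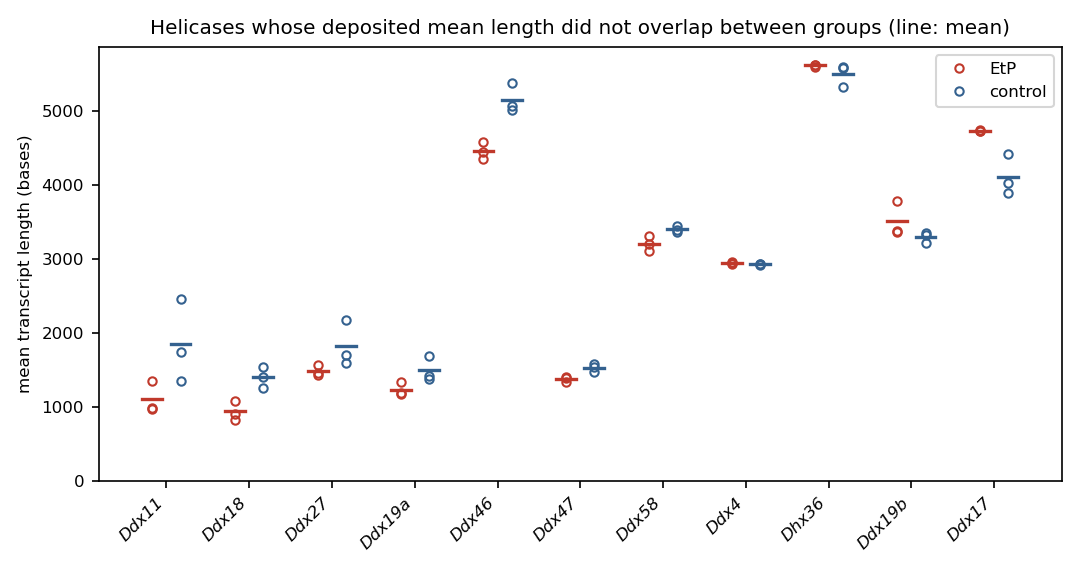
Deposited mean transcript length in bases in each of the 3 EtP (red, left) and 3 control (blue, right) libraries for the 11 members whose groups did not overlap, with lines for group means. Ddx11, Ddx18 and Ddx46 are visibly shorter in EtP and Ddx17 longer (4728 bases in EtP and 4107 in control), while Ddx4 differs by little (2940 and 2925 bases).

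Promoters were taken from RefSeq on GRCm38.p6, which held 47 of the 54 members. The median GC content of the 250 bases before the start was 60.4% in members and 52.0% over 27025 promoters of all genes. A CCGGAAG core of ETS factors was found on either strand in 29.8% of member promoters and 7.05% of all promoters, and a GGGCGG core of SP1 in 61.7% and 32.94%. CCAAT was found in 44.7% and 34.46%, the E-box CACGTG in 8.5% and 6.05%, and TATAAA in 2.1% and 12.97%. None of these 5 motifs contains another, and the promoters were not matched for GC content. A match is a description of letters, not a site in use. The promoters of 4 of the members that rose most are given here without their exon bases, 5′ to 3′ on the strand of the gene, with matches to the 5 motifs on either strand in capitals.
Ddx18, chr1:121567990-121568230, minus strand: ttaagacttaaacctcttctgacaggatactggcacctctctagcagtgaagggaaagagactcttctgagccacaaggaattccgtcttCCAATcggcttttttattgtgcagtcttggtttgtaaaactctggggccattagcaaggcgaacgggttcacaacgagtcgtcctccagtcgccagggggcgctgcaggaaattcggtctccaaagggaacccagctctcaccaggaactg
Ddx24, chr12:103425848-103426097, minus strand: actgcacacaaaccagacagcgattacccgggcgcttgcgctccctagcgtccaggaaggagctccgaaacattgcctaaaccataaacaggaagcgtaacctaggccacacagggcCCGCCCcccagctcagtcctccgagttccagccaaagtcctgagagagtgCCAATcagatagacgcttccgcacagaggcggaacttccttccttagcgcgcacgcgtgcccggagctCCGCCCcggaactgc
Ddx55, chr5:124552614-124552863, plus strand: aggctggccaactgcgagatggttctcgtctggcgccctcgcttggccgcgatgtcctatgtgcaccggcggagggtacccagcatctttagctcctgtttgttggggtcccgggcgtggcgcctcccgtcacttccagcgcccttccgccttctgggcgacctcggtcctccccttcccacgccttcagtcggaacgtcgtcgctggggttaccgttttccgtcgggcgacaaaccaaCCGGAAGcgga
Ddx10, chr9:53248113-53248362, minus strand: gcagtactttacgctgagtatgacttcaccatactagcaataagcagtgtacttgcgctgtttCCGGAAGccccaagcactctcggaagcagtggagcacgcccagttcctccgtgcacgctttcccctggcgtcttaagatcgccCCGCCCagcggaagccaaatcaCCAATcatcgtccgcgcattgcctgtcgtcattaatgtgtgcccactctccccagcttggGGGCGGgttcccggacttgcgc
Ddx18, Ddx24 and Ddx10 had a CCAAT box, Ddx24 and Ddx10 had SP1 cores, and Ddx55 and Ddx10 had the ETS core, so no motif of the 5 was shared by the 4 stretches. Ddx18 also had an SP1 core among the bases left out.

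Proteins known to bind or activate the helicases did not all go the same way. Of 55 listed cofactors 52 were tested, of which 12 rose and 8 fell in EtP, with a median log2 fold change of 0.23, beside 12.5% and 18.1% of all genes. With library size alone 1 was higher and 22 were lower, beside 3.8% and 53.0% of all genes. Of the Ddx20 partners in the SMN complex, 6 were tested, none rose and 5 fell, with a median of -1.0. Gemin7 had 39.8, 39.2 and 35.3 CPM in EtP, against 183, 136 and 131 CPM in control, a wide gap with a log2 fold change of -1.98 (edgeR adjusted p = 0.000142). Smn1 had 41.5, 37.3 and 43.1 CPM in EtP, against 120, 71.6 and 67.8 CPM in control (log2 fold change -1.09, edgeR adjusted p = 0.0102), and Gemin2, Gemin6 and Gemin8 were the other 3 that fell. Gemin2 was rare, with 5, 3 and 4 counts in EtP, against 29, 16 and 14 in control. Leaving out EtP library 1 or EtP library 2 left 1 of the 5 partners called, and Smn1 then had an adjusted p of 0.0546 and 0.0605. Without any 1 of the other libraries, 2 to 5 were called, the 2 without control library 2. Falls were not limited to the SMN complex. Of the 8 partners of Ddx39b, none rose and 2 fell, with a median of -0.12.

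Of the 3 partners of Ddx27 in large-subunit assembly, Wdr12 and Pes1 rose. Wdr12 had 154, 147 and 101 CPM in EtP, against 48.7, 41.3 and 18.8 CPM in control, with no overlap (log2 fold change 1.88, edgeR adjusted p = 0.00241). Pes1 averaged 126 ± 12.2 CPM in EtP and 78.8 ± 8.59 CPM in control (SD, n = 3 each; log2 fold change 0.67, edgeR adjusted p = 0.0291), and Bop1, the other protein of that complex, did not pass (log2 fold change 0.31, adjusted p = 0.498). Eif4enif1, which binds Ddx6 and the cap-binding protein, had a log2 fold change of 1.02 (edgeR adjusted p = 0.0447), and Eif4b, which stimulates eIF4A, one of 0.72 (adjusted p = 0.0367). Magoh and Cwc22, partners of eIF4A3, had 0.87 and 0.80 (adjusted p = 0.0358 and 0.0123). These 4 calls, and that of Pes1, were lost with library size alone. Without any 1 of the EtP libraries or without control library 2 the calls of Eif4enif1, Eif4b and Magoh were lost (adjusted p = 0.0501 to 0.142), as was Magoh without control library 3 (0.0665), while Pes1 was lost without EtP library 1, EtP library 3 or control library 2 (0.0765 to 0.105).

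Of the 6 tested relatives with other symbols, the exon junction helicase Eif4a3 was higher by 0.58 on the log2 scale (edgeR adjusted p = 0.0492), a call lost without any library but control library 1 (adjusted p = 0.0678 to 0.156) and, at -0.14, with library size alone (adjusted p = 0.565). D1Pas1, a testis relative of Ddx3x, fell, with 1, 1 and 0 counts in EtP, against 17, 67.0 and 69.0 in control (edgeR adjusted p = 0.00127), also without any 1 library (adjusted p up to 0.00955).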

How the data were processed

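Smart-seq2 libraries of polyadenylated RNA were primed with oligo-dT, with no mark of strand or molecule, per the labels' protocols. The submitters' processing notes name cutadapt 1.16, STAR and the mm10 build, and the counting program is not given in the sources used here. As deposited, the authors' expected counts are estimates per gene that need not be whole, and were rounded for the test. The deposited TPM values and mean transcript lengths are also the authors', per the file headers. Totals were 11173295 to 14737152 per library, which limits members with few counts.

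EtP and control (3 libraries each) were compared over all genes with edgeR 4.0.16 in R 4.3.3 (filterByExpr, TMM, robust quasi-likelihood fits with a group term alone, Benjamini-Hochberg adjustment at 0.05). The SE is the absolute log2 fold change over the square root of F. CPM are on TMM-scaled library sizes. The edgeR step was tested on simulated data with as many genes raised as lowered. Those data had no difference in composition between the groups, so they do not test the choice of scaling. TPM were tested as log2(TPM + 1) with limma 3.58.1, and DESeq2 1.42.0 was a further alternative. Deviations of same-numbered libraries correlated at 0.127, 0.003 and 0.273, not all above 0.1, so the numbers were not taken to pair them. Positions, transcripts and antisense overlap came from GENCODE M21 on the same assembly. Figures were drawn with matplotlib 3.10.9.

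The members, their steps, the cofactor and marker lists and the tests were chosen with earlier results of these data known. Named were called members, members with at least 100 TPM in a group, up to 2 members of each step with the highest TPM, and called cofactors and relatives with a mean of at least 50 CPM over both groups. Other members, Bop1, Gemin2, Gemin6, Gemin8 and D1Pas1 were named to account for the whole family or for a small count, after their values were seen.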

Additional observations from a re-analysis of the deposited data

How the results depend on the processing

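The number of members higher in EtP, 17, was 6 with library size alone, 6 with log2(TPM + 1), 6 with log2(TPM + 0.1) and 9 at an adjusted p below 0.01; the other alternatives gave 12 to 20. The number lower, 2, was 12 with library size alone, 6 with log2(TPM + 1), 6 with log2(TPM + 0.1), 5 with no filter on low counts, and 1 with RLE scaling, with a filter of 10 CPM, with median-centred TPM and at an adjusted p below 0.01. Leaving out 1 library gave 12 to 20 higher and 1 to 2 lower, the 1 without control library 2. Both lower members, Ddx58 and Dhx33, were kept without control library 3; without EtP library 1 the 2 were Ddx43 and Ddx58, and without EtP library 2, EtP library 3 or control library 1 Ddx43 and Dhx33. DESeq2 gave 3, Ddx43, Ddx58 and Dhx33. The members' median of 0.42 turned to -0.32 with library size alone, -0.05 with log2(TPM + 1) and -0.06 with log2(TPM + 0.1), and was 0.52 with RLE, 0.32 with the filter of 10 CPM, 0.50 with DESeq2, 0.50 with median-centred TPM and 0.34 to 0.59 without 1 library. The replicate block gave 20 higher, 2 lower and a median of 0.42; the libraries share only a number.

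Positive log2 fold changes turned negative in 19 members with library size alone and in 15 with log2(TPM + 1), of which only Ddx5 had been called. Those chosen by the naming rule are given here. With library size alone they were -0.33 for Ddx19a, -0.38 for Ddx3x, -0.13 for Ddx5, -0.34 for Ddx50, -0.15 for Ddx60, -0.63 for Dhx30, -0.49 for Dhx32, -0.21 for Dhx34 and -0.57 for Dhx57. With log2(TPM + 1) and log2(TPM + 0.1) they were -0.21 and -0.21 for Ddx3x, -0.31 and -0.35 for Ddx50, -0.05 and -0.06 for Ddx60, -0.93 and -0.96 for Dhx30, -0.45 and -0.46 for Dhx32, and -0.47 and -0.49 for Dhx57. Dhx30 was also at -0.15 and Dhx57 at -0.09 with the filter of 10 CPM, and Dhx30 at -0.38 with median-centred TPM and -0.04 without EtP library 2 (-0.04 to 0.25 without 1 library). Of these 9 genes Dhx30 and Dhx57 passed as lower with library size alone, Dhx30 also on TPM. The cause was not tested. Ddx3y and Dhx58 were lower without a filter, as was Ddx43; all 3 were near 0 in EtP. Ddx49 was also called with RLE, DESeq2 and the replicate block, Ddx21 with DESeq2, Ddx19b without a filter and with the block, and Ddx28 with RLE, DESeq2, limma-voom, no filter and the block.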
